A study of Danio rerio with 12 samples.

Results

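RNA from hearts of zebrafish at 48 hours post fertilisation (hpf) was compared with RNA from whole zebrafish embryos at 25 hpf, to describe which genes were higher or lower in the dissected organ. The libraries were chosen by their labels: 4 of the 12 libraries of the series are control hearts, 3 are control embryos, and the 5 libraries of double mutants were left out. Of the control hearts, 2 carried wild type sequence (WT, replicates 1 and 3) and 2 came from siblings (replicates 1 and 3). The 3 embryo libraries were siblings (replicates 1 to 3). Siblings were mixtures of wild type animals and animals heterozygous for inactivating mutations in tet2, tet3 or both, genes for TET dioxygenases that oxidise 5-methylcytosine. No library of this comparison was homozygous for them. All animals had the strain background AB, wild types being derived from both AB and TU fish, and were untreated and raised at 28.5 °C. Hearts were dissected by hand under a microscope. RNA of the hearts was amplified from 1 ng before library construction, and RNA of the embryos was not. Tissue, stage and amplification therefore changed together in every contrast below and cannot be told apart. Genotype was not balanced either, since 2 of the 4 hearts were WT and all embryo libraries were siblings. The labels give neither the number of animals behind a library nor whether replicates were of different clutches, and a p-value below therefore refers to the variation among these libraries, which may be technical.

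At 48 hpf the zebrafish heart is a beating, looped tube with an atrium, a ventricle, a valve-forming canal between them and an outflow tract. Its wall holds cardiomyocytes, which contract by the sliding of sarcomeric filaments after calcium release, and an inner endocardium, the specialised endothelium that lines the chambers. Outer epicardial cells arrive from the proepicardium at about this stage. A whole embryo at 25 hpf holds a young heart too, but most of its RNA comes from brain, somitic muscle, skin, notochord, yolk syncytial layer and other tissues.

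Raw counts per gene were joined by gene identifier over the 7 libraries. Counted reads ranged from 3289161 to 5963478 in the hearts and from 8883844 to 16700992 in the embryos. Genes with at least 1 read numbered 20115 to 21185 in hearts and 22098 to 22601 in embryos. Levels are given as CPM, the counts of a gene scaled to a common library size with TMM factors. A level allows comparison of a gene between libraries and not between genes, since gene length was not removed. The 3 counts that a count of 0 allows correspond to 0.612 to 0.834 CPM in a heart and 0.166 to 0.308 CPM in an embryo, and intervals of this kind cover counting error only. Of 25680 genes, 17349 were tested with edgeR's quasi-likelihood test, and FDR is its Benjamini-Hochberg adjusted p-value.

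Hearts differed from embryos in 9503 genes at an FDR under 0.05, which is 54.8% of the genes tested. Of these, 4706 (27.1% of genes tested) were higher in hearts and 4797 (27.7%) were lower. These shares are the background against which the members of every gene list below are read. A stricter class of heart-enriched genes, with a log2 fold change of at least 2 and every heart above every embryo, held 2212 genes (12.8%). The reverse class of heart-depleted genes held 2241 genes (12.9%). Called or not, 4687 genes tested (27%) had every heart above every embryo, and 5340 (30.8%) had every heart below. Log2 fold changes of hearts over embryos had a median of -0.04, a 5th percentile of -3.11 and a 95th percentile of 3.46. A total of 308 genes were above 5 and 192 below -5. The first principal component separated hearts from embryos with 74.3% of the variance, and the second, with 10.7%, spread the hearts. The biological coefficient of variation was 0.484 among the hearts and 0.257 among the embryos. Sibling and WT hearts were joined because they are both controls. Between them edgeR called 0 of 17349 genes, 1625 had an unadjusted p under 0.05, and the smallest FDR was 0.215.

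Values of hearts are given below in the order WT 1, WT 3, sibling 1, sibling 3, and those of embryos in the order of replicates 1, 2, 3. The gene nppa (chromosome 8, 48624271 to 48628895), for atrial natriuretic peptide, a hormone made by cardiomyocytes, was at 7399, 4443, 1923 and 3258 CPM in hearts. In embryos it was at 1.22, 3.93 and 4.62 CPM, so that no value overlapped. Its log2 fold change was 10.37 (SE 0.84), with an edgeR FDR of 1.69e-05. The related peptide gene nppb (chromosome 8, 48620752 to 48621775) was at 220.2, 344, 74.7 and 138 CPM against 0.276, 1.21 and 0.822 CPM, a log2 fold change of 8.0 (SE 0.74). A rule then took called genes without overlap of the tissues, with a proper symbol and at least 50 CPM in the higher tissue. The 15 with the largest changes toward hearts had log2 fold changes from 7.28 to 10.54, and their lack of overlap was set by the rule. They were lyve1a, nppa, f8, lmod2b, vmhcl, mipb, nppb, myh6, fgfbp2b, sbk3, kcnh6a, rbpms2b, tnni1b, tnnc1a and nanog. Cardiomyocyte genes of contraction and excitation made up 6 of the 15 (lmod2b, vmhcl, myh6, kcnh6a, tnni1b, tnnc1a). The gene f8, for coagulation factor VIII, a protein made by endothelial cells in mammals, was at 2762, 1216, 425 and 1551 CPM in hearts and 1.99, 2.64 and 2.88 CPM in embryos. For mipb, a lens aquaporin gene, and nanog, a pluripotency factor gene that embryos inherit from the egg, 1 heart held most of the signal, as given below.

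**Figure D1:**
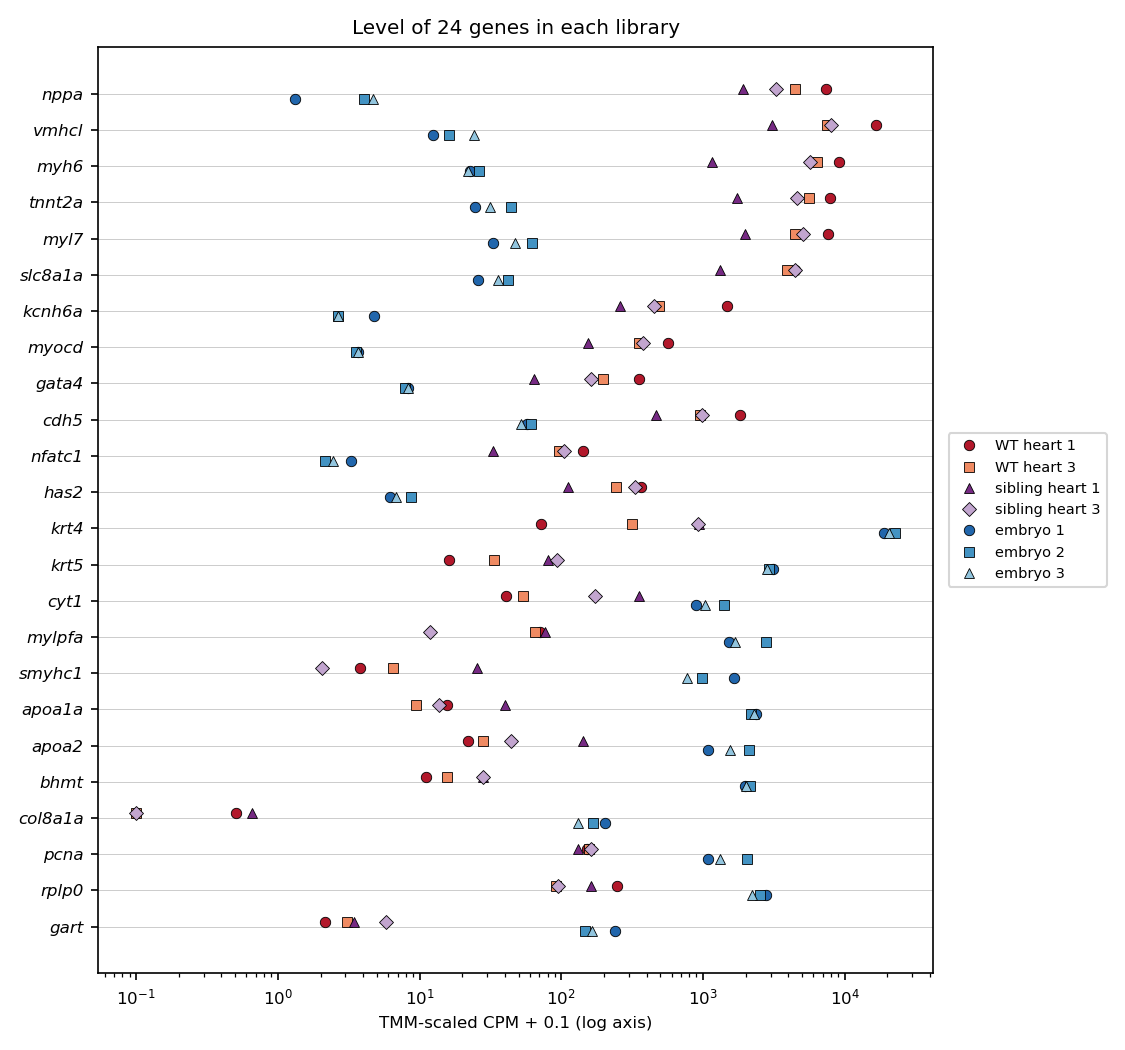
Level of 24 genes in each library, as TMM-scaled CPM plus 0.1 on a log axis, with hearts above and embryos below each line. For the 12 genes from nppa to has2 every heart lies above every embryo, and for the 12 from krt4 to gart every heart lies below every embryo. The genes were picked from the named genes, some of which had to show no overlap to be named, so this separation is no result. Over all genes tested, every heart lay above every embryo in 27% and below in 30.8%. Levels are not corrected for gene length and are to be read along a line only.

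The dissected tissue carried heart markers: the summed level of the 4 cardiomyocyte markers (myl7, tnnt2a, myh6, nppa) was 32110, 20840, 6834 and 18640 CPM in the hearts and 81.6, 136 and 105.2 CPM in the embryos. Most sarcomere genes were higher in hearts. Of 52 members found, 50 were tested, and 42 were higher in hearts, 1 was lower and 7 were not called, with a median log2 fold change of 3.64 against -0.04 over all genes tested. The list took 11.5%, 6.01%, 3.39% and 6.91% of all counts in the hearts and 0.219% to 0.376% in the embryos. The ventricular myosin heavy chain gene vmhcl (chromosome 2, 24618673 to 24633992) was at 16756, 7458, 3085 and 7979 CPM in hearts and 12.3, 15.9 and 24 CPM in embryos, and the atrial myosin heavy chain gene myh6 (chromosome 20, 53772085 to 53778019) was at 9183, 6355, 1165 and 5712 CPM and 22.7, 26.1 and 22 CPM. WT replicate 1 was the highest heart and sibling replicate 1 the lowest for both chamber genes. Their log2 fold changes were 8.99 (SE 0.8) and 7.89 (SE 0.79). Cardiac troponin T, tnnt2a (chromosome 23, 5719252 to 5751200), was at 7873, 5605, 1753 and 4592 CPM against 24.5, 43.8 and 31.4 CPM. The regulatory light chain gene myl7 (chromosome 8, 40417522 to 40425350), which marks all cardiomyocytes, was at 7651, 4437, 1994 and 5080.1 CPM against 33.1, 61.8 and 47.2 CPM. These genes also gave sibling replicate 1 the lowest value and WT replicate 1 the highest, and no heart came within 10-fold of an embryo. Log2 fold changes were 7.22 (SE 0.67) for tnnt2a, 6.66 (SE 0.62) for myl7, 7.32 (SE 0.66) for tnni1b and 7.28 (SE 0.58) for tnnc1a, which encode troponin T, light chain, troponin I and troponin C. The leiomodin gene lmod2b, whose product lengthens thin filaments, changed by 9.13 (SE 0.62), and the gene listed as zgc:101560, with 3 counts over the embryos, was 2075-fold (95% interval 709 to 10070 from counting error) higher. In bulk samples such as these, fewer cells of a type and less RNA per cell cannot be told apart. The member that fell was the methyltransferase gene smyd1a (-4.33, SE 0.57), named after its values were seen, at 0.213 to 0.556 CPM in hearts and 5.14 to 10.1 CPM in embryos. The titin genes ttn.1 and ttn.2, adjacent copies between which reads can be split, were higher by 4.31 and 5.0. The ventricular genes vmhcl and vmhc are also close relatives, so the division of counts between such genes is uncertain.

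Genes for calcium handling, ion channels and cell junctions of the heart came next. Of 46 tested, 36 were higher and 5 lower, with a median log2 fold change of 2.78. The sodium-calcium exchanger gene slc8a1a, which extrudes calcium after each beat, was at 4478, 3916, 1322 and 4464 CPM in hearts and 25.9, 42.2 and 35.8 CPM in embryos, a log2 fold change of 6.68 (SE 0.6). The repolarising potassium channel gene kcnh6a was at 1471, 487, 258 and 448 CPM against 4.7, 2.57 and 2.57 CPM, a change of 7.65 (SE 0.75). Every heart was far above every embryo for each of them. The muscarinic receptor gene chrm2a, through which the vagus slows the heart in vertebrates, rose by 6.78 (SE 0.79), and the connexin gene cx41.8 by 6.66 (SE 0.73). Textbook members of the list, named after their values were seen, moved the same way: the release channel gene ryr2b changed by 6.19 (SE 0.52), the pacemaker channel gene hcn4 by 5.38 (SE 0.59), the L-type calcium channel gene cacna1c by 4.98 (SE 0.41) and the calcium pump gene atp2a2a by 4.41 (SE 0.52). The called members that were lower belong to muscle more widely or to skeletal muscle. They were casq1b (calsequestrin of skeletal muscle, -2.47), cav3 (caveolin of muscle, -3.24), murcb and murca (cavins of muscle, -4.47 and -1.96) and tmem38a (a cation channel of muscle stores, -2.3). The call of murca was lost without WT heart 3 (-1.61), embryo replicate 1 (-2.08) or embryo replicate 2 (-1.77).

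The list of natriuretic and other secreted factors was mixed, with 9 of 19 members higher and 5 lower. Beside nppa and nppb, the growth factor genes bmp10 (5.94, SE 0.84), nrg2a (3.86, SE 0.46) and bmp4 (3.59, SE 0.47) rose on the log2 scale. The insulin-like growth factor gene igf2a (-3.08) and the BMP gene bmp2b (-2.37) fell. The list's median of 0.36 turned to -0.13 without WT heart 1 and was 0.55 without sibling heart 1, and its lower members numbered 3 without WT heart 3 or without embryo replicate 2. Receptors and ligands of cardiac signalling showed counts near the background, with 26 of 76 higher, 22 lower and a median of -0.21, or -0.43 without sibling heart 1. Within it, the endothelin receptor gene ednraa was at 904, 634, 218 and 406 CPM in hearts and 16.1, 20.5 and 18.2 CPM in embryos (4.89, SE 0.53). Its relative ednrba, known from pigment cells, was at 1.02, 0.639, 1.94 and 0.218 CPM against 9.01, 14.8 and 11.3 CPM, a log2 fold change of -3.64. These receptors of 1 ligand family thus stood on opposite sides, with no overlap of tissues in either. The apelin gene apln (4.52, SE 0.48), the neuregulin receptor gene erbb4b (4.25, SE 0.49) and the coreceptor gene tgfbr3 (3.96, SE 0.49) rose. The cyclooxygenase gene ptgs1 (-3.09), the chemokine receptor gene cxcr4a (-2.63) and the retinoic acid carrier gene crabp2a (-2.61) fell.

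Transcription factors and RNA-binding regulators of the heart were higher in 31 of 47 tested members and lower in 1, with a median log2 fold change of 2.48. Without sibling heart 1, 3 members were lower. The coactivator gene myocd (chromosome 12, 197665 to 230365), which drives muscle genes with serum response factor, was at 564, 354, 155 and 379.7 CPM against 3.59, 3.48 and 3.6 CPM. The zinc finger gene gata4 (chromosome 20, 53146699 to 53162461) was at 352, 196, 63.6 and 161 CPM against 8.24, 7.78 and 8.22 CPM. In both, sibling replicate 1 was the lowest heart and still above every embryo. Log2 fold changes were 6.67 (SE 0.52) for myocd, 4.58 (SE 0.55) for gata4, 6.85 (SE 0.52) for its partner gene zfpm2a, 3.93 (SE 0.44) for gata6 and 3.66 (SE 0.51) for hand2. The RNA-binding protein genes rbpms2b and rbpms2a rose by 7.4 and 5.0, and mef2cb, a factor for adding cardiomyocytes to the tube, by 4.82. Further textbook cardiac factors were named after their values were seen: nkx2.5 changed by 4.09 (SE 0.48), tbx5a by 4.15 (SE 0.56) and tbx20 by 4.33 (SE 0.57). The member that fell was tbx3a, known from the conduction system of mammals, at 3.06 to 13.1 CPM in hearts and 19 to 29.3 CPM in embryos.

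Endothelial and endocardial genes were higher in 36 of 59 members tested and lower in 8, with a median log2 fold change of 1.45. VE-cadherin, cdh5 (chromosome 7, 44106370 to 44180006), which joins endothelial cells, was at 1834, 952, 463 and 982 CPM in hearts and 56.9, 61.5 and 51.8 CPM in embryos. The endocardial factor gene nfatc1 was at 143, 96.4, 33.1 and 104 CPM against 3.21, 2.04 and 2.36 CPM. Neither overlapped between tissues, and the log2 fold changes were 4.22 (SE 0.5) and 5.2 (SE 0.53). Vascular genes were not uniform. The receptor gene flt1 (4.48) and the ETS factor genes erg (4.48) and fli1a (3.38) rose, and tie1 rose by 1.81. The receptor gene kdrl, at 184, 106, 61.1 and 133 CPM in hearts and 69.4, 49.2 and 43 CPM in embryos, rose by 1.17, with a log2 fold change of 1.09 and no call without embryo replicate 2, and 0.99 and no call without embryo replicate 3. The receptor gene flt4 of veins and lymphatics (-1.97), the scavenger receptor gene mrc1a (-3.25), the guidance receptor gene robo4 (-2.35) and the tight junction gene cldn5a (-2.22) fell. The hyaluronan receptor gene lyve1a was at 175, 119.6, 35.3 and 53.2 CPM in hearts and had 2 counts over the embryos, which made it 2068-fold (95% interval 572 to 17092 from counting error) higher in hearts.

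Valve and atrioventricular canal genes were higher in 29 of 49 members and lower in 5, with a median of 1.52. Without WT heart 1, 8 were lower. The hyaluronan synthase gene has2, whose product swells the cardiac jelly of the valve cushions, was at 365, 242, 112 and 333 CPM against 6.08, 8.61 and 6.68 CPM, a log2 fold change of 5.21 (SE 0.48). The flow-responsive factor gene klf2a rose by 3.46 (SE 0.52) and the periostin gene postna by 4.03 (SE 0.66). The mesenchyme factor gene twist1a fell by 2.92. Smooth muscle and outflow tract genes were higher in 26 of 44 and lower in 6, with a median of 1.16. Smooth muscle actin, acta2, which young cardiomyocytes also express, was at 351, 121, 38.9 and 73 CPM in hearts and 0.995, 1.81 and 2.57 CPM in embryos (6.37, SE 0.83). The smooth muscle myosin gene myh11a rose by 2.9 and tagln by 2.53, while the elastin gene elnb, at 0 to 3.33 CPM in hearts, was too low to be tested. The LIM protein gene fhl1a rose by 6.61 (SE 0.62), lmod1b by 5.02 (SE 0.5) and desmb by 6.83 (SE 1.26). The receptor gene notch3 of mural cells fell by 1.66.

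Epicardial genes gave 11 of 27 members higher and 4 lower, with a median of 0.7, but the defining markers did not separate the tissues. The gene tcf21 was at 7.55, 1.7, 8.06 and 4.36 CPM in hearts and 1.77, 2.64 and 2.57 CPM in embryos, with an edgeR FDR of 0.0802. For tbx18 the values were 3.67, 5.11, 9.45 and 1.31 CPM and 8.12, 5.36 and 4.01 CPM (FDR 0.696), and for wt1a 3.88, 1.92, 10.8 and 1.74 CPM and 4.31, 4.61 and 2.57 CPM (FDR 0.772). Without WT heart 3 tcf21 was called, at a log2 fold change of 1.54. Hearts and embryos overlapped for all of them. The members that led the list, gata4, krt94 (3.78), hand2 and kdm6bb (3.45), are not restricted to epicardium. The tenascin gene tnw (-4.24), the collectin gene colec12 (-1.47) and the decorin gene dcn (-1.54) fell.

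Extracellular matrix genes moved in both directions, with 21 of 66 members higher, 27 lower and a median of -0.22, which ran from -0.46 without embryo replicate 2 to -0.02 without embryo replicate 1. The count of higher members fell to 9 without embryo replicate 2 and to 11 without embryo replicate 3. Members that rose included the matrix protease gene adamts9 (3.44, SE 0.4) and the laminin gene lamb1b (3.37, SE 0.56). Members that fell included the fibrillar collagen gene col11a1a (-3.55), the periostin gene postnb (-3.21) and lum (-2.71). The skin-anchoring collagen gene col7a1 was at 1.43, 1.06, 6.67 and 1.96 CPM in hearts and 263, 133 and 225 CPM in embryos, a log2 fold change of -6.27. The matrix gene sparcl1 rose by 4.92 (SE 1.17), at 3.06, 10, 166 and 36.4 CPM in the hearts, and was highest in sibling replicate 1.

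**Figure D2:**
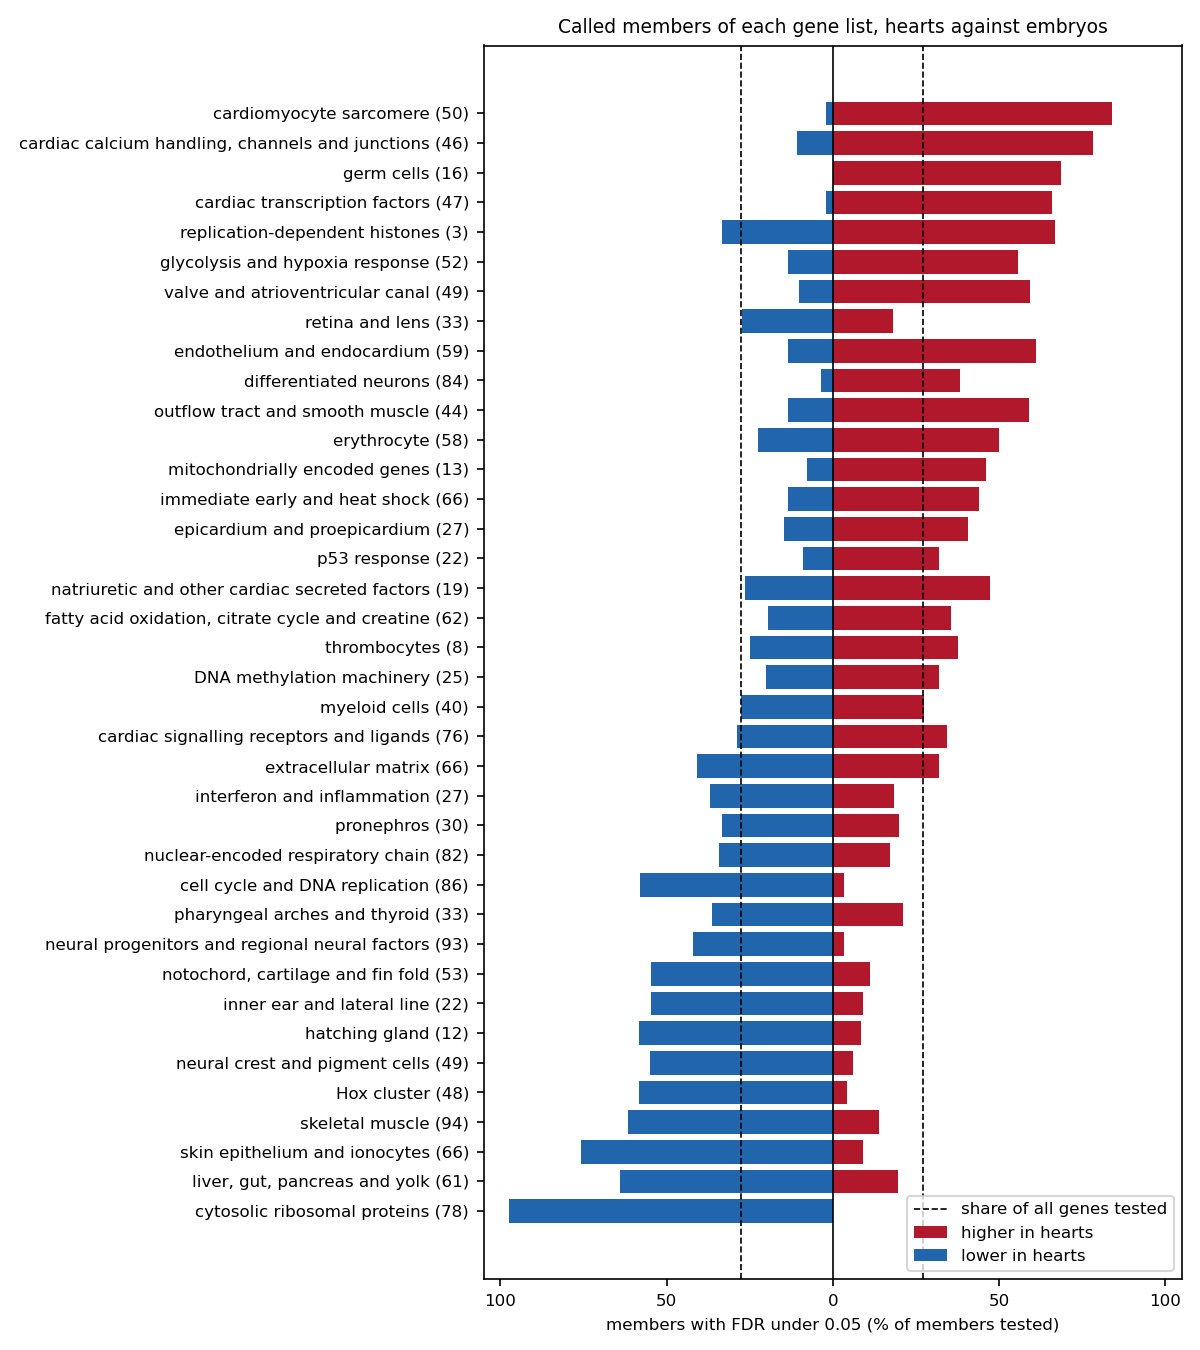
Share of tested members of 38 gene lists with an FDR under 0.05, to the right for genes higher in hearts and to the left for genes lower in hearts, with the number tested in brackets. Dashed lines mark the 27.1% and 27.7% over all genes tested. Sarcomere and calcium handling genes lie highest in the order of list medians and cytosolic ribosomal proteins lowest.

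Erythrocyte genes leaned toward hearts in their calls, more so in WT than in sibling hearts. Of 58 erythrocyte genes tested, 29 were higher in hearts and 13 lower, with a median log2 fold change of 1.04. Medians of single hearts, taken from log2 of CPM plus 0.5 and not from the fit, were 1.37, 1.55, 0.02 and 0.54. The WT hearts thus lay above the sibling hearts. With sibling hearts only, 20 of 60 members tested were higher and 14 lower, with a median of 0.37. The list took 0.785%, 0.783%, 0.354% and 0.421% of counts in the hearts and 0.365% to 0.488% in the embryos. Summed levels of the 6 erythrocyte markers were 2458, 2108, 639 and 764 CPM in hearts and 905.5, 1365 and 1435 CPM in embryos. The anion exchanger gene slc4a1a was at 794, 729, 239.5 and 257 CPM against 42.2, 9.37 and 74.5 CPM and the first haem synthesis gene alas2 at 419.6, 477, 96.7 and 154 CPM against 40.3, 12.1 and 42.5 CPM. Log2 fold changes were 3.59 (SE 0.72) and 3.18 (SE 0.64), and 5.3 (SE 0.79) for the membrane skeleton gene epb41b. Globin genes split. The gene hbae1 rose by 3.14 (SE 1.1), with 13.5, 33.6, 1.11 and 3.05 CPM in hearts and 0.166, 1.21 and 3.18 CPM in embryos, and lost its call without WT heart 3 (2.05), embryo replicate 1 (2.54) or embryo replicate 2 (2.97). The gene hbbe3 fell by 2.31 with 191, 146, 53.1 and 37.3 CPM in hearts and 348, 663 and 585 CPM in embryos, and hbae3 (-0.27) and hbbe1.1 (0.58) were not called. The haem pathway gene urod fell by 3.3. Of these globin genes, hbae1, hbae3 and hbbe1.1 lie close together on chromosome 3, and hbbe3 lies on chromosome 12 (20217539 to 20218669). Reads can be split between similar globin genes, so their separate values are uncertain. Calls of myeloid genes stood at the background, with 11 of 40 higher and 11 lower, or 7 lower without embryo replicate 2. The myeloid list's share of all counts was smaller in hearts, at 0.0533% to 0.0787% against 0.297% to 0.32% in embryos. Granule genes lyz (2.47, SE 0.6) and mpx (1.75, SE 0.42) and the perforin-like gene mpeg1.2 (4.64, SE 0.6) rose, while lcp1 (-2.7), the inflammasome adaptor gene pycard (-3.47) and apoeb (-4.84) fell. The markers mpeg1.1 (0.46) and coro1a (-0.26) were not called. The gene apoeb, known from macrophages and the yolk, was at 2074, 2124 and 1907 CPM in embryos. The thrombocyte list gave 3 of 8 higher and 2 lower, among them the integrin gene itgb3a, which fell by 6.48. The list's median of 0.2 turned to -0.12 without sibling heart 3 and otherwise ran from 0.09 to 0.35 on leaving out 1 library.

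Glycolysis and hypoxia genes were higher in 29 of 52 members and lower in 7, with a median log2 fold change of 1.61. The paralogs of pyruvate kinase moved in opposite directions. The pyruvate kinase gene pkma (chromosome 18, 1014890 to 1059194) was at 916, 379, 311 and 369 CPM in hearts and 22.7, 16.9 and 24.7 CPM in embryos, and pkmb (chromosome 25, 28716900 to 28752870) at 1.63, 0.639, 1.39 and 0.218 CPM and 14, 14.4 and 11.5 CPM. These are log2 fold changes of 4.53 (SE 0.48) and -3.77 (SE 0.53). The phosphofructokinase gene pfkla rose by 4.31 (SE 0.5). The glucose transporter genes slc2a1a (-4.32) and slc2a3a (-2.42) and the hypoxia factor gene epas1a (-2.74) fell. Genes of fatty acid oxidation, the citrate cycle and creatine gave 22 of 62 higher and 12 lower, with a median of 0.33. The median was 0.06 without WT heart 1 and turned to -0.15 with sibling hearts only. Higher were pdk4, a brake on pyruvate oxidation (4.47, SE 0.45), cpt1b, the muscle carnitine palmitoyltransferase (4.12, SE 0.5), ppargc1a, a coactivator of mitochondrial genes (3.21, SE 0.51), and cs, citrate synthase (3.1, SE 0.41). Lower were the fatty acid carrier gene fabp3 (-2.84), the ADP/ATP carrier gene slc25a4 (-2.96), slc25a20 (-2.53) and the mitochondrial creatine kinase gene ckmt1 (-4.01).

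Nuclear genes of the respiratory chain were higher in 14 of 82 members and lower in 28, with a median of -0.43, which ran from -0.73 without WT heart 1 to -0.28 without embryo replicate 2. Lower calls fell to 17 without embryo replicate 2, and the median turned to 0.09 once a trend with genomic span was removed. By complex, 4 of 38 members of complex I were higher and 18 lower, and of 16 members of complex IV 5 were higher and 2 lower. Over all genes tested, 27.1% were higher and 27.7% lower. Without the span trend the whole list had 16 members higher and 15 lower, and the complexes were not counted again. The cytochrome oxidase gene cox4i1l was at 57.6, 21.9, 21.4 and 20 CPM in hearts and had 1 count over the embryos, which made it 1279-fold (95% interval 229 to 50603 from counting error) higher in hearts. The accessory subunit gene ndufa12 rose by 5.75 (SE 0.73) and the ATP synthase gene atp5b by 1.99 (SE 0.44). The subunit genes ndufa6 (-2.87) and uqcrc2a (-2.85) fell. Of 13 genes of the mitochondrial genome, 6 were higher and 1 was lower. The list took 4.26% to 8.82% of counts in hearts and 3.06% to 4.6% in embryos. Transcripts of this genome did not move together, since mt-atp8 rose by 4.67 (SE 0.49) and mt-nd4l by 3.88 (SE 0.55), while mt-co3 fell by 1.31. Both mt-atp8 and mt-nd4l overlap a neighbouring gene, so their counts are uncertain.

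Several immediate early genes, which cells transcribe within minutes of a stimulus, were among the genes furthest above the embryo. The gene fosab (chromosome 20, 46648591 to 46650720) was at 161, 1168, 89.7 and 321 CPM in hearts and 3.04, 1.66 and 4.52 CPM in embryos, and egr1 (chromosome 14, 21035277 to 21039140) at 104, 589.6, 62.2 and 283 CPM and 4.26, 3.1 and 4.42 CPM. The WT heart of replicate 3 held the highest values and sibling replicate 1 the lowest, and no heart overlapped an embryo. Log2 fold changes were 7.15 (SE 1.0) for fosab, 6.04 (SE 0.81) for egr1, 6.94 (SE 0.72) for egr3 and 6.31 (SE 1.27) for fosb. Over the list of immediate early and heat shock genes, 29 of 66 members were higher and 9 lower, with a median of 0.81. The median was 0.53 without WT heart 3, which held the most fosab and egr1, and 0.26 with sibling hearts only. Lower members were the haem oxygenase gene hmox1a (-3.33), the collagen chaperone gene serpinh1b (-2.96), the cochaperone gene dnajb1b (-2.37) and cebpb (-2.14). Hearts were dissected before extraction and embryos were extracted whole, and the part of that step in these levels was not tested. Genes of the p53 response gave 7 of 22 higher and 2 lower, led by plk2b (2.74, SE 0.38) and ccng2 (2.68, SE 0.4), with rrm2b lower (-2.9). Interferon and complement genes gave 5 of 27 higher and 10 lower. The signal transducer gene stat1a rose by 2.64 (SE 0.31), and the complement genes cfd (-5.84), c3a.1 (-4.01) and c3b.2 (-3.68) fell.

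Lists of tissues outside the heart had the lowest medians beside ribosomal protein genes, which are given below. By the rule that chose the 15 genes above, the 15 largest falls had log2 fold changes of -6.22 or lower, with col8a1a at -9.44. They were the hatching enzyme gene he2, the notochord collagen gene col8a1a, the transglutaminase gene tgm1l4, 1 copy of the cathepsin gene ctslb (ENSDARG00000074306), 1 copy of the collagen gene col5a3b (ENSDARG00000101816), the slow muscle myosin gene smyhc1, the notochord gene cmn, both copies of afp4 (ENSDARG00000041490 and ENSDARG00000095863), the apolipoprotein gene apoa1a, prtgb, bhmt, the notochord gene ngs, mmp30 and col7a1. The gene col8a1a was at 0.408, 0, 0.556 and 0 CPM in hearts and 203, 167 and 132 CPM in embryos, and bhmt, a liver and yolk enzyme of methionine synthesis, at 11, 15.5, 28.1 and 27.9 CPM and 1975, 2131 and 2019 CPM. All hearts were below the limit of 3 counts for col8a1a. The gene he2, with 1 count over the hearts, was 1111-fold (95% interval 199 to 43887 from counting error) higher in embryos, and tgm1l4, with 3 counts, 623-fold (95% interval 213 to 3023 from counting error) higher.

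Skin genes were lower in 50 of 66 members tested and higher in 6, with a median log2 fold change of -2.41, and the list took 0.19% to 0.559% of counts in hearts against 3.47% to 4% in embryos. The periderm keratin gene krt4 (chromosome 6, 39310962 to 39315491) was at 72, 318, 945 and 919 CPM in hearts and 19100, 22653 and 20629 CPM in embryos. It fell by 5.21 (SE 0.78) and was detected in every heart, least in WT replicate 1. The basal keratin gene krt5 (-5.74), cyt1 (-2.85) and the claudin gene cldn1 (-6.05) fell. The basal marker tp63 reached 7.14, 15.8, 68.6 and 10.5 CPM in hearts against 78.7, 49.5 and 63.4 CPM in embryos, was not called (edgeR FDR 0.0949), and was called at -2.54 without sibling heart 1, where it was highest. Skin list members that rose were fgfbp2b (7.76), klf3 (2.8), atp6v1aa (2.06), dsc2l (1.2), slc12a10.2 (4.77) and vil1 (2.48), some of them expressed in other organs and the last 2 named after their values were seen. The call of dsc2l was lost without embryo replicate 2 (1.1) or embryo replicate 3 (1.18). Hatching gland genes were lower in 7 of 12 and higher in 1, the endoderm factor gene foxa3 (0.85), named after its values were seen. The call of foxa3 was lost without sibling heart 1, without sibling heart 3 and without any 1 of the embryo libraries, at 0.62 to 0.91, which left 0 members higher. Hatching gland genes were lower in 4 without embryo replicate 2 or without embryo replicate 3. The enzyme gene he1b was at 11, 4.47, 224 and 24.4 CPM in hearts against 302, 610 and 718 CPM in embryos (-3.05, SE 1.02), and he1a at 22.7, 11.9, 468 and 51.6 CPM against 437, 701 and 562 CPM, which was not called. Without sibling heart 1, he1a was called at -4.32, and he1b was not called without sibling heart 3 (-2.75), embryo replicate 2 (-2.99) or embryo replicate 3 (-2.84). Sibling replicate 1 stood apart for both enzymes, with he1a within the range of the embryos.

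Skeletal muscle genes were lower in 58 of 94 members and higher in 13, with a median of -2.1. The fast light chain gene mylpfa was at 71.2, 64.7, 76.4 and 11.8 CPM in hearts and 1520, 2770 and 1676 CPM in embryos, and smyhc1 at 3.67, 6.39, 25.3 and 1.96 CPM and 1647, 977 and 766 CPM. The log2 fold changes were -5.15 (SE 0.6) and -6.95 (SE 0.81), and sibling replicate 3 held the least of each. The troponin gene tnnt3a (-5.63) and myhz1.2 (-5.51) fell, as did the markers myog (-2.06) and actn3b (-2.14). The call of myog was lost without WT heart 3 (-2.01), embryo replicate 1 (-1.61) or embryo replicate 2 (-2.15), and that of actn3b without embryo replicate 1 (-1.33). The members that rose, led by tmod1 (5.32), ttn.2, mef2cb and ttn.1, are genes that cardiac muscle also uses, and with titin included the list took 1.61% to 4.48% of counts in hearts and 1.44% to 2.09% in embryos. Notochord, cartilage and fin fold genes were lower in 29 of 53 and higher in 6, with a median of -1.19, or -1.85 without sibling heart 1. The notochord factor gene ta (brachyury) was at 1.63, 0.639, 6.95 and 0.654 CPM against 29.8, 12.3 and 14.2 CPM (-2.98, SE 0.72), and the cartilage collagen gene col9a3 fell by 4.56. The fin fold genes and1, and2 and and3, which encode actinodins, rose instead, by 3.69, 6.29 and 5.06. The gene and2 was at 201, 175, 637 and 61.9 CPM in hearts and 3.81, 1.28 and 5.24 CPM in embryos, a log2 fold change of 6.29 (SE 0.87). It was highest in sibling replicate 1 and lay above every embryo in each heart.

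Genes of liver, gut, pancreas and yolk were lower in 39 of 61 members tested and higher in 12, with a median of -2.45. Over all 80 members found, without the filter on low counts, the median was -1.99. The list took 0.156% to 0.416% of counts in hearts and 3.13% to 3.57% in embryos. The apolipoprotein genes apoa1a and apoa2, which the yolk syncytial layer expresses strongly, were at 15.5, 9.37, 40 and 13.7 CPM against 2360.3, 2168 and 2279 CPM and at 21.8, 28.1, 141 and 44.4 CPM against 1077, 2125 and 1549.9 CPM. Sibling replicate 1 held the most of each among the hearts, and log2 fold changes were -6.86 (SE 0.55) and -4.75 (SE 0.64). The marker apoa1b fell by 3.85. The pancreatic hormone gene gcga rose by 6.1 (SE 1.22), with 115, 3.19, 33.9 and 6.75 CPM in hearts and 0.332, 0.529 and 0.925 CPM in embryos, so that hearts differed among themselves by over 10-fold. Higher members such as gata6 and prox1a (2.41) also act in the heart. The liver marker fabp10a was too low to be tested, at 3.47, 1.28, 1.67 and 1.09 CPM in hearts and listed at 0 in every embryo. Higher calls fell from 12 to 7 without sibling heart 1.

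Neural crest and pigment genes were lower in 27 of 49 members and higher in 3, or 5 without WT heart 1 and 1 without embryo replicate 2 or without embryo replicate 3, with a median of -1.48. The purine synthesis genes gart and paics, which pigment cells use for their pteridines and purines, were at 2.04, 2.98, 3.33 and 5.66 CPM against 240.4, 147 and 165 CPM and at 25.5, 36.4, 43.3 and 23.7 CPM against 605, 785 and 673 CPM. Their log2 fold changes were -5.71 (SE 0.4) and -4.42 (SE 0.34), with no overlap. Also lower were the xanthophore gene aox5 (-5.25) and the genes slc45a2 (-4.72), tyr (-3.11) and pmela (-2.21), which melanophores use for pigment. The melanophore gene dct fell by 2.53, with no call without embryo replicate 2 (-2.59). WT replicate 1 held the most dct (23.5, 3.19, 1.11 and 1.74 CPM in hearts, 43, 41 and 46.3 CPM in embryos). Kidney genes gave 10 of 30 lower, 6 higher and 14 not called, with a median of -0.42. Their higher members numbered 3 without embryo replicate 3 and 9 without WT heart 1. Among the lower members were the tubule genes slc12a1 (-5.58), slc12a3 (-5.38), atp1a1a.2 (-5.1) and cdh17 (-3.69). The podocyte gene nphs1, with 3 counts over the hearts, was 16.3-fold (95% interval 5.44 to 80.3 from counting error) higher in embryos. Inner ear and lateral line genes were lower in 12 of 22 and higher in 2, or 1 without embryo replicate 2 or without embryo replicate 3. The hair cell factor gene atoh1a (-5.8), sox21a (-5.34) and the parvalbumin gene pvalb9 (-5.07) fell. Pharyngeal arch and thyroid genes gave 12 of 33 lower and 7 higher, with a median of -0.96. Once a trend with genomic span was removed, 9 were higher and 9 lower. The list's share of all counts was nevertheless larger in hearts, at 0.129% to 0.218% against 0.0568% to 0.0612% in embryos. Lower members included the homeobox genes hoxa2b (-3.19) and prrx1a (-2.24), the forkhead gene foxd1 (-2.59) and moxd1 (-3.08). The 3 arch markers did not move together. The marker dlx3b fell by 2.07 (SE 0.71), at 1.43, 4.68, 28.3 and 4.79 CPM in hearts and 42, 39.7 and 39.4 CPM in embryos. It lost its call without WT heart 3, sibling heart 3, embryo replicate 1 or embryo replicate 2, at -2.11 to -1.81. The marker nkx2.3 was at 2.25, 4.04, 7.22 and 7.19 CPM against 6.85, 6.88 and 7.09 CPM and was not called (FDR 0.435). The third, barx1, was at 91.6, 0.426, 74.2 and 58.2 CPM in hearts and 4.15, 5.29 and 6.16 CPM in embryos (3.43, SE 1.0), absent but for 2 counts from WT replicate 3 and high in the other hearts. Its call was lost without embryo replicate 1 (3.28) or embryo replicate 2 (3.43). The thyroglobulin gene tg rose by 4.3 (SE 1.14), with 0, 7.88, 11.1 and 26.4 CPM in hearts and 0.83, 0.302 and 0.514 CPM in embryos, and lost its call without embryo replicate 2 (3.99).

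Hox genes, which give cells their position along the body axis, were lower in 28 of 48 members and higher in 2, with a median log2 fold change of -1.59. Divided by paralog group after the values were seen, 17 of 23 genes of groups 9 to 13 were lower and 0 higher, with a median of -3.18. In groups 5 to 8, 6 of 12 were lower and 2 higher, with a median of -0.96, and in groups 1 to 4, 5 of 13 were lower and 0 higher, with a median of -1.31. The higher genes were hoxb8a, at 92.7, 42.8, 81.7 and 95 CPM in hearts and 29.6, 42.7 and 27.7 CPM in embryos (1.23, SE 0.34), and hoxc8a (1.18, SE 0.44), whose tissues overlapped. Without embryo replicate 3, 0 members were higher, with hoxb8a at 1.07, and without any other single library but WT heart 3, 1 was higher. The posterior genes hoxb10a (-5.74), hoxc12a (-4.95) and hoxc13a (-4.19) and the hindbrain gene hoxb1a (-4.07) fell furthest of the members with at least 10 CPM.

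Genes of the cell cycle and DNA replication were lower in 50 of 86 members and higher in 3, with a median log2 fold change of -0.92. Medians of single hearts, taken from log2 of CPM plus 0.5 and not from the fit, were -1.0, -1.12, -1.02 and -1.02. By this measure the 4 hearts were close to each other. The replication clamp gene pcna (chromosome 10, 40900618 to 40905471) was at 153, 156, 132 and 163 CPM in hearts and 1079, 2048 and 1314 CPM in embryos, a log2 fold change of -3.29 (SE 0.34). The single-strand binding gene rpa2 (-3.28), the spindle checkpoint gene bub1 (-2.62) and the cohesion gene esco2 (-2.57) fell. The higher members were the ligase gene lig1 (1.17), the cytokinesis gene anln (1.09) and the E2F gene e2f8 (0.89). Their number was 1 without embryo replicate 2 and 0 without embryo replicate 3. The call of e2f8 was also lost without WT heart 1 (0.84) or sibling heart 1 (0.76), and that of lig1 without embryo replicate 1 (1.05). Cytosolic ribosomal protein genes moved nearly as a block, with 76 of 78 lower and 0 higher and a median of -2.54. They took 1.75%, 1.47%, 2.27% and 1.28% of counts in the hearts and 9.07% to 12.3% in the embryos. The gene rplp0 was at 246, 91.3, 162 and 94.8 CPM against 2789, 2525 and 2205 CPM (-4.08, SE 0.43), and rpl39 (-3.88), rps15 (-3.89) and rpl23 (-4.11) fell with it. After the trend with genomic span was removed, the median of this list was -1.92. Histone genes counted here were few, with 3 tested, of which hist1h2ba rose by 6.25 (SE 0.47), from 0.387, 0.151 and 0.205 CPM to 21, 23.4, 19.4 and 19.8 CPM.

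Genes that write, read or remove DNA methylation stood near the background as a list, with 8 of 25 higher, 5 lower and a median of 0.07, which turned to -0.07 with upper quartile scaling. The genes tet2 and tet3 carry the mutations of the study and are named for that reason. The gene tet2 (chromosome 1, 25662646 to 25693594) was at 171, 385, 229 and 163 CPM in hearts and 111, 79.3 and 104 CPM in embryos, and tet3 (chromosome 5, 13809699 to 13826742) at 117, 104.7, 109 and 66.9 CPM and 87.7, 49.4 and 68.1 CPM. Log2 fold changes were 1.27 (SE 0.36) with an edgeR FDR of 0.011 for tet2 and 0.54 (SE 0.31) with an FDR of 0.157 for tet3. Once a trend with genomic span was removed, tet3 was called at 0.80 (edgeR FDR 0.0492). The gene tet2 was not called without embryo replicate 2 (1.12, FDR 0.0575) or without WT heart 3 and sibling heart 1 (0.79, FDR 0.0613), a setting chosen after the data were seen. The third family member, tet1, rose by 2.03 (SE 0.34), from 18.3, 10.3 and 14.6 CPM to 54.5, 81.7, 56.1 and 43.6 CPM. Hearts and embryos did not overlap for tet1 or tet2, and WT and sibling hearts overlapped for tet2. Among the de novo methyltransferases, dnmt3ab rose by 1.96 (SE 0.32), while dnmt3bb.2 (-2.02) and dnmt3bb.3 (-1.82) fell. The maintenance methyltransferase gene dnmt1, named after its values were seen, was at 166, 127, 140 and 229 CPM in hearts and 248, 119 and 189.8 CPM in embryos and was not called (FDR 0.693). The glycosylase gene tdg.1, which removes oxidised cytosines, was at 43.9, 39.4, 53.1 and 28.5 CPM in hearts and 153, 181 and 154 CPM in embryos, a log2 fold change of -1.98. Its relative tdg.2, also named after its values were seen, rose by 1.69 (SE 0.44). The cytidine deaminase relative apobec2a, a muscle gene, rose by 3.39 (SE 0.51), gadd45ga rose by 2.48 and gadd45gb.1 fell by 3.54.

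The control hearts were not equal in their levels of markers of other tissues. Summed levels of the 4 neuron markers (elavl3, elavl4, snap25b, stmn2a) were 268, 3102, 1607 and 471 CPM in the hearts and 287, 154 and 268 CPM in the embryos. WT replicate 3 and sibling replicate 1 thus lay far above the embryos, while WT replicate 1 lay within their range. The pan-neuronal gene elavl3 was at 123, 2126, 844 and 281 CPM in hearts and 222, 115 and 206 CPM in embryos, with a log2 fold change of 2.22 (SE 0.8) and an edgeR FDR of 0.0338. Without WT heart 3 and sibling heart 1, a setting chosen after the data were seen, its log2 fold change was 0.18 (FDR 0.742). It was not called without WT heart 3 (1.23) or without any 1 of the embryo libraries (1.95 to 2.37). Over the list of differentiated neurons, 32 of 84 members were higher and 3 lower, with a median of 1.26, or 0.79 without WT heart 3. Without WT heart 3 and sibling heart 1, 13 were higher and 28 lower, with a median of -0.34. The direction of the list therefore depended on these libraries. Lower calls numbered 8 without sibling heart 1 and 5 without WT heart 3. Higher calls also fell to 14 without embryo replicate 2. The neuronal factor gene pou4f2 was at 15, 96.4, 127 and 2.61 CPM in hearts and the photoreceptor factor gene crx at 10.8, 146, 115 and 8.71 CPM, with the same 2 hearts high.

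Genes of neural progenitors were lower in 39 of 93 members and higher in 3, with a median of -1.07, or -0.71 without WT heart 1. Higher members numbered 8 without WT heart 1 or without sibling heart 3, and 1 without any other single library. Without WT heart 3 and sibling heart 1, 75 were lower. The progenitor gene sox3 was at 4.9, 25.3, 43.1 and 8.06 CPM in hearts and 199.6, 137 and 189 CPM in embryos (-3.12, SE 0.6), while sox2 (-1.09) and sox19a (-1.09) were not called with all hearts and were called without sibling heart 1 (-1.57 and -2.16). The LIM factor gene lhx1a, at 17.1, 222, 104 and 33.5 CPM in hearts and 8.62, 5.52 and 7.81 CPM in embryos, rose by 3.68 (SE 0.78). The hindbrain factor gene atoh1b (-5.51) and the Notch target her15.1 (ENSDARG00000054562, -4.41) fell. Lens crystallin and membrane genes were high in 1 heart. The marker mipa was at 4.49, 11.1, 457 and 3.05 CPM in hearts and 8.29, 10.9 and 26.3 CPM in embryos, and cryba1b at 5.31, 3.62, 234 and 0.654 CPM and 11.4, 6.2 and 30.5 CPM. Sibling replicate 1 was above every embryo for both, and the other hearts were within or below the range of the embryos. Neither was called (FDR 0.11 and 0.273), and nor was crygn2 (0.349). The crystallin gene cryaa, too low to be tested, was at 0.204, 0.213, 15 and 0.218 CPM in hearts. The related gene mipb, at 2.45, 25.1, 841 and 3.49 CPM in hearts, was called at a log2 fold change of 8.51 (SE 2.2). Its value without sibling heart 1 was 4.1, and it was not called without embryo replicate 2 (8.15). Over the retina and lens list, 6 of 33 members were higher and 9 lower, with a median of 1.47, or 2.39 without embryo replicate 3. Without sibling heart 1, 20 were lower and the median was -2.24. Higher members numbered 10 without sibling heart 3 and 11 without embryo replicate 3. The retinal progenitor markers rx1 (-1.9) and rx2 (-2.48) were lower in hearts.

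**Figure D3:**
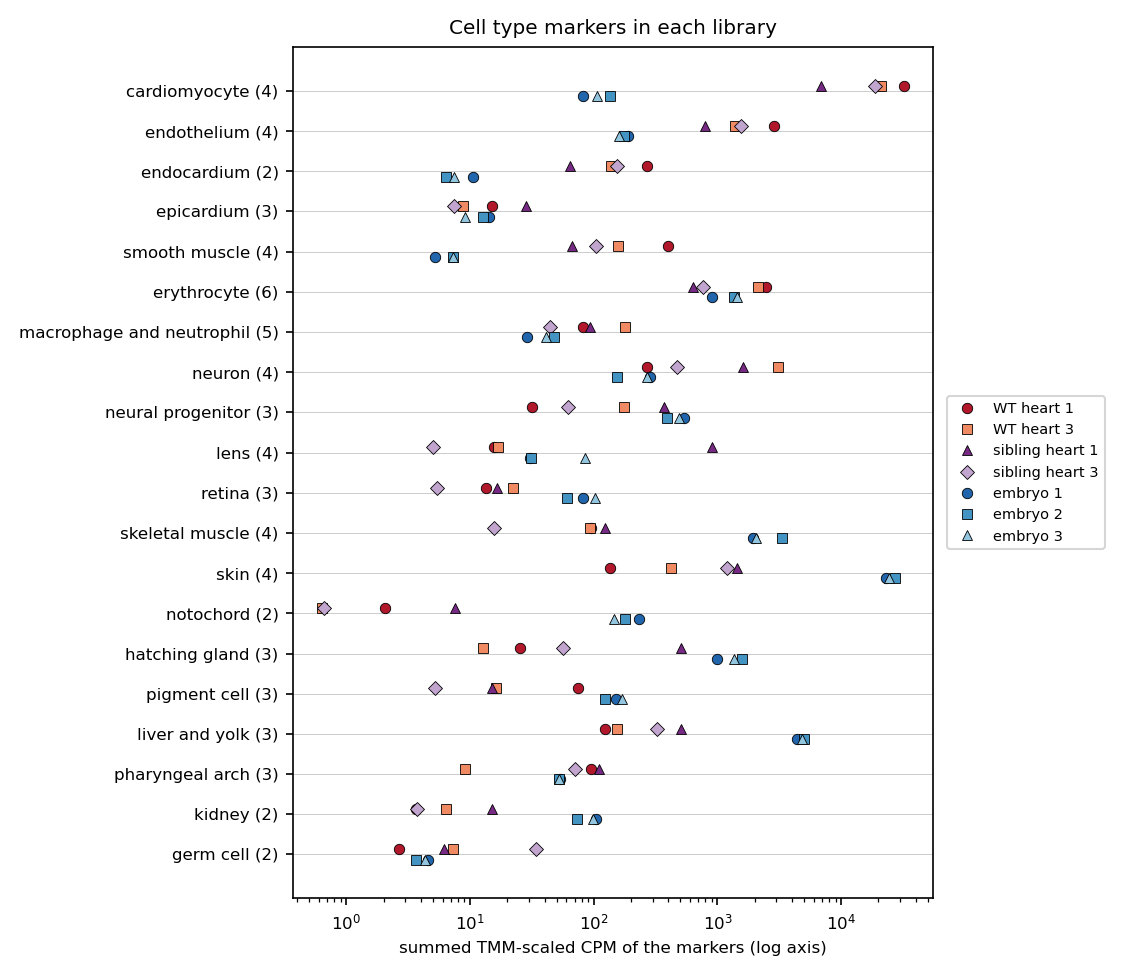
Summed level of the cell type markers in each library, in TMM-scaled CPM on a log axis, with the number of markers in brackets and hearts above embryos on each line. Cardiomyocyte, endothelium, endocardium and smooth muscle markers are higher in every heart, neuron markers are high in WT heart 3 and sibling heart 1, and lens markers are high in sibling heart 1 alone.

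Genes known from the egg and germ line had a positive list median in every heart, largest in sibling heart 3. Medians of single hearts, taken from log2 of CPM plus 0.5 and not from the fit, were 2.16, 1.53, 0.96 and 3.49. Of 23 germ cell genes found, 16 passed the filter on low counts and were tested, and 11 were higher in hearts and 0 lower. Their median was 2.73, and over all 23 without the filter it was 1.74. Genes nearly without counts in embryos could pass the filter through hearts alone, so these calls do not stand for the whole list. Without sibling heart 3, 8 of 15 tested were higher and the median was 1.73. The gene buc, which organises the Balbiani body of the oocyte, was at 5.51, 20, 6.95 and 80.6 CPM in hearts and 0, 0.151 and 0.103 CPM in embryos, and dazl, an RNA-binding protein gene of germ cells, at 19, 12.3, 7.78 and 56.6 CPM and 0.166, 0.0756 and 0.103 CPM. The linker histone gene h1m of the egg was at 44.7, 21.1, 16.7 and 93.5 CPM against 1.16, 1.81 and 0.925 CPM. For each of them sibling replicate 3 was highest, and every heart still lay above every embryo. The gene buc, with 3 counts over the embryos, was 397-fold (95% interval 135 to 1932 from counting error) higher in hearts. Log2 fold changes were 7.48 (SE 0.89) for dazl, 5.06 (SE 0.68) for h1m and 5.88 (SE 0.98) for ca15b. The gene nanog was at 26.1, 22.6, 13.1 and 256 CPM in hearts and 0.387, 0.529 and 0.616 CPM in embryos. The germ cell marker ddx4 (vasa) was at 2.25, 5.32, 5.83 and 27.7 CPM against 3.04, 1.44 and 3.29 CPM (1.99, SE 0.76). Without sibling heart 3 it was not called, at 0.8, nor was it without any 1 of the embryo libraries (1.67 to 2.14). The marker piwil1, at 0.408, 1.92, 0.278 and 6.54 CPM against 1.55, 2.19 and 1.03 CPM, was not called. Counts of the list as a whole, 0.581% to 1.22% in hearts and 0.0582% to 0.23% in embryos, came mostly from the gene listed as zgc:158463, named after its values were seen, at 6914, 6964, 11021 and 5157 CPM and 1314, 538 and 2046 CPM.

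**Figure D4:**
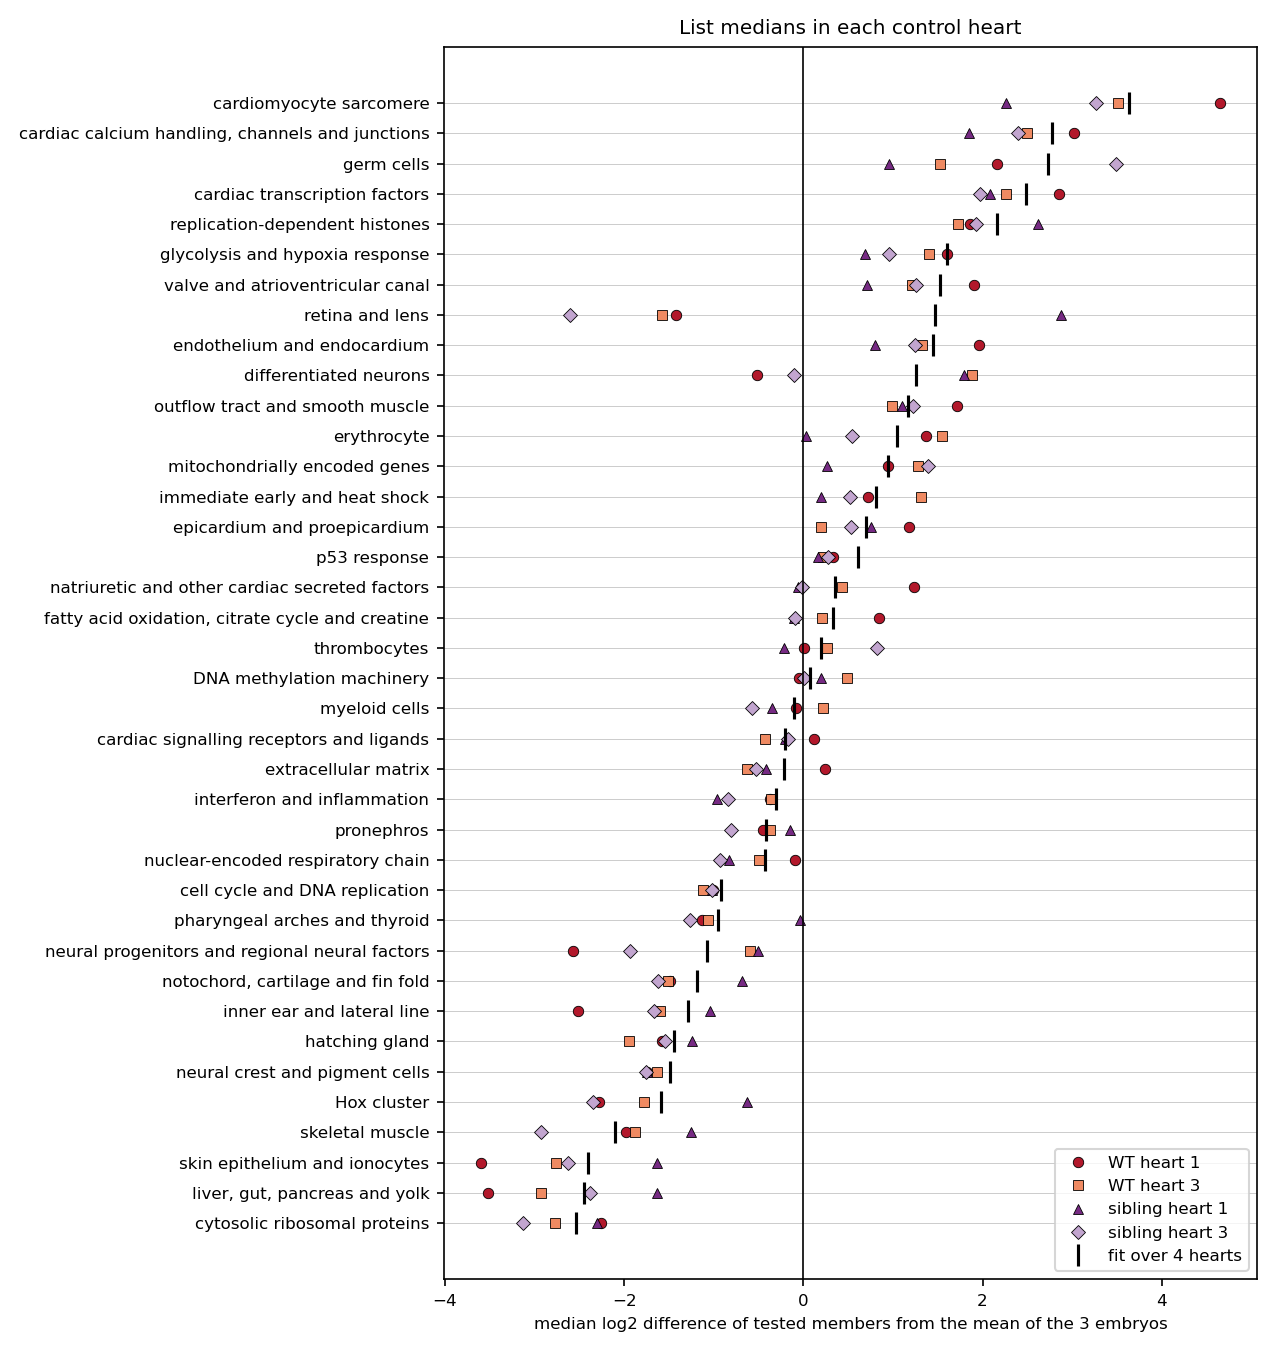
Median log2 difference of the tested members of each list from the mean of the 3 embryos, for each control heart (log2 of CPM plus 0.5), beside the median from the fit over all hearts. Sarcomere medians run from 2.27 to 4.65, cell cycle medians run from -1.12 to -1.0, and the retina and lens median is positive in sibling heart 1 only.

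Depth and markers of other tissues also differed among the hearts. Sibling heart 1 had the fewest counts of all libraries and the smallest distance from the embryos on the first principal component. It held the lowest level of each of the sarcomere genes vmhcl, myh6, tnnt2a and myl7 and of cdh5 and nfatc1, and the highest summed level among hearts of skin (136, 420.1, 1444 and 1195 CPM), hatching gland (25.3, 12.8, 504 and 56 CPM), liver and yolk (123, 153, 511 and 327 CPM) and lens markers (15.5, 16.8, 902 and 5.01 CPM). In embryos the skin markers summed to 23210, 27030 and 24540 CPM and the liver and yolk markers to 4373, 5011 and 4802 CPM. Every heart was below every embryo for both sums. Whether these levels came from other tissue in the dissected samples was not tested, nor was a part of such tissue in the values of any other gene.

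The change also ran with the genomic span of a gene, from its annotated start to its end. The genes tested were ordered by span and divided into 10 groups of equal size. The median log2 fold change was -0.50 at a median span of 2.5 kb. It was lowest in the next group, at -0.61 (5.49 kb), and rose from there to 0.90 at 142 kb. Genes higher in hearts made up 24.3% of the group with the shortest spans and 46.8% of the longest, and genes lower in hearts 35.8% and 11.8%. In the group at 5.49 kb, 17.1% were higher and 38.5% lower. After each library's trend with span was removed, 4892 genes were higher and 4356 lower, and the sarcomere list had a median of 3.59, the skin list -2.13 and the ribosomal protein list -1.92. Other lists shifted more in their calls. The neural progenitor list had a median of -0.58 with 30 members lower, and the hatching gland list -0.80 with 5 lower. Transcript length, RNA integrity and priming in the amplification are not given in the files, and their part in this trend was not tested.

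**Figure D5:**
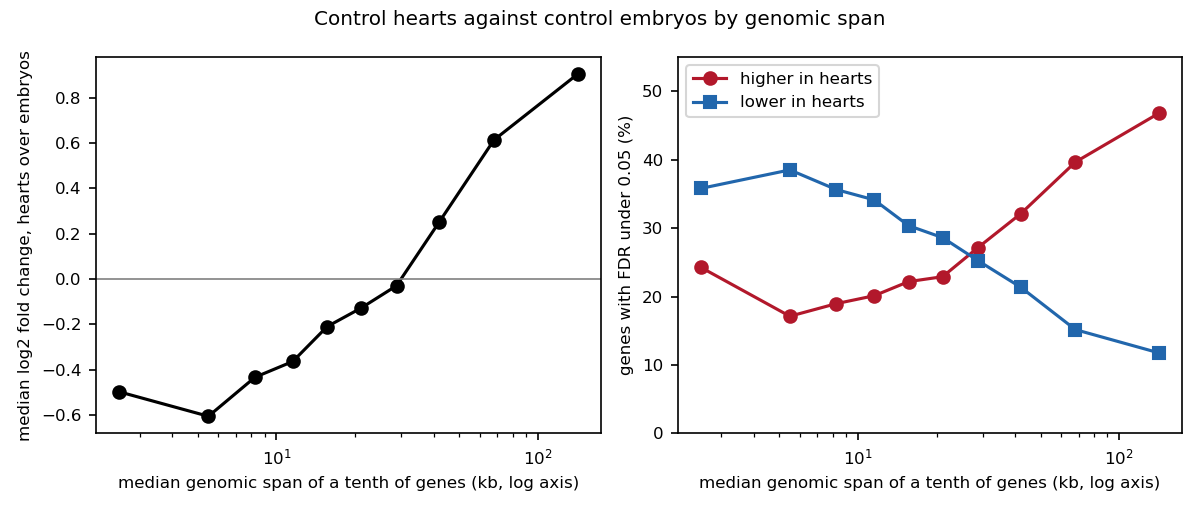
Left, median log2 fold change of hearts over embryos for 10 equal groups of the genes tested, by median genomic span in kb on a log axis. Right, the percentage of each group with an FDR under 0.05 and higher or lower in hearts. The median is -0.50 in the group with the shortest spans, -0.61 in the next, and rises from there to 0.90. The percentage lower in hearts is 35.8% in the shortest group, 38.5% in the next and 11.8% in the longest.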

How the data were processed

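Raw counts per gene (unit: counts, not normalised) were deposited by the authors in tables of the whole series, for hearts and for embryos. The submitters' processing notes name STAR 2.3.0e, HTSeq 0.6.0 and the zebrafish build GRCz10, without their roles, and coordinates are those of the deposited tables. Per the labels' protocols, RNA of the hearts was amplified with an Ovation system and all libraries were made with a TruSeq kit that does not mark strand, so overlapping and antisense genes cannot be told apart. Another 29 per-sample columns (mutants, the authors' normalised values and repeats of the same counts) were not used.

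The columns of 4 control hearts and 3 control embryos were joined by gene identifier. Genes were filtered with filterByExpr, scaled by TMM and fitted with tissue as the only term by quasi-likelihood in edgeR 4.0.16 under R 4.3.3, with limma 3.58.1 and DESeq2 1.42.0 for alternatives. Calls use a Benjamini-Hochberg adjusted p under 0.05. Errors of log2 fold changes are SE, computed as the absolute log2 fold change over the square root of the test's F value. They are thus derived from the edgeR test and are not standard errors estimated by the fit. The fit was run on simulated data in which few genes changed, equally in both directions, and both tissues varied alike. The data differ in each of these, so that run does not check scaling or error rates here. Replicates were compared for repeat deposits and differed beyond sampling noise.

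The libraries, the 38 gene lists (1817 entries, matched by symbol) and the cell type markers were chosen with earlier results of these data known. Named genes are, among calls without overlap and with at least 50 CPM in the higher tissue, the 15 largest changes in each direction, up to 4 called members per list and direction with at least 10 CPM, and every marker but 1 that is not reported here. Others are said to be chosen after their values were seen, beside tet2 and tet3. Alternatives covered scaling, filters, tool, threshold, left-out libraries, genotype of the hearts, a replicate block, depth, genomic span and TMM trimming. Protein and transcript sequences were not used here.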

Additional observations from a re-analysis of the deposited data

Results flagged for a closer look

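In 41 of 309 values checked (38 list shares and 271 named genes), 1 control heart lay apart from the other 3, with a gap to its nearest neighbour above the 95% critical share of the range of the 4 hearts in Dixon's test. Chance flags about 1 in 20 such groups if values are normal and independent. Levels were used without a log, and genes can rise together in 1 heart, so that rate need not hold here. Of the 41, 24 were set by sibling heart 1, 11 by WT heart 1, 4 by sibling heart 3 and 2 by WT heart 3.

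In sibling heart 1, retina and lens genes took 0.561% of counts, hatching gland genes 0.112% and germ cell genes 1.217%, above the other hearts, and p53 response genes took 0.126%, below them. Lens genes were high there, with mipb at 841 CPM, mipa at 457 CPM, cryba1b at 234 CPM and crygn2 at 197 CPM. The hatching enzyme genes he1a and he1b were at 468 and 224 CPM. The enzyme gene he2 was at 0.278 CPM, which is 1 count. The skin and fin fold genes tp63, cldn1, col7a1 and and1 were at 68.6, 2.5, 6.67 and 390.1 CPM. The matrix genes postnb and elnb were at 196 and 3.33 CPM. The genes ta, hoxb1a, apoeb, pvalb9 and mmp30 were at 6.95, 2.78, 200.9, 22.5 and 3.06 CPM. The arch marker dlx3b and the crystallin gene cryaa were at 28.3 and 15 CPM. Each of these genes was higher in sibling heart 1 than in the other hearts.

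In WT heart 1, rbpms2b stood at 3224 CPM, ttn.1 at 14170 CPM, hand2 at 589 CPM, krt94 at 331 CPM, pkma at 916 CPM and cox4i1l at 57.6 CPM, above the other hearts. The genes dsc2l (289 CPM), colec12 (73.9 CPM), dct (23.5 CPM), casq1b (6.53 CPM) and ndufa6 (17.6 CPM) were also highest there. In sibling heart 3, nanog was at 256 CPM, ca15b at 122 CPM and ddx4 at 27.7 CPM, above the other hearts, and gadd45ga, at 25.1 CPM, was below them. In WT heart 3, interferon and inflammation genes took 0.0613% of counts and dnajb1b was at 7.66 CPM, both above the other hearts.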

How the results depend on the processing

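No gene called with all libraries was called in the other direction in any alternative run. Against a log2 fold change of 1, in place of 0, 2859 genes were higher and 2692 lower. Leaving out 1 library gave 3560 to 4742 higher and 3759 to 5080 lower genes, with 2107 to 2420 heart-enriched and 1986 to 2635 heart-depleted. Without WT heart 3 and sibling heart 1, a setting chosen after the data were seen, 4726 genes were higher and 5102 lower, 8323 of 9405 calls were made again, and the median over all genes was -0.13. Upper quartile scaling moved that median to -0.18 and the share of calls that were higher from 49.5% to 44.6%. Removing the span trend gave 52.9% and TMM trimming at 0.45 gave 52.6%. Replicate numbers did not pair the tissues (correlations of deviations for the same number 0.049, 0.109, -0.033 and -0.082). A replicate block gave 3223 genes higher and 3415 lower, with 6610 of 9503 calls made again.

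Among 271 named genes, 2 to 20 calls were lost on leaving out a single library, and only genes without a call changed sign. On leaving out 1 library, log2 fold changes ran from -1.29 to 3.59 for mipa, -2.34 to 2.74 for cryba1b, -2.64 to 1.99 for crygn2, -0.64 to 0.52 for wt1a, -0.43 to 0.085 for dnmt1, -0.82 to 0.062 for tbx18, -0.80 to 0.91 for piwil1 and -0.74 to 0.027 for coro1a. The lowest values of mipa, cryba1b, crygn2 and wt1a were those without sibling heart 1. With WT hearts only these genes stood at -0.95, -1.82, -2.21 and -0.40 in that order, with hbae3 at 0.35, piwil1 at -0.46 and coro1a at 0.32. Without WT heart 3 and sibling heart 1 they stood at -1.97, -2.37, -2.36 and -0.42, with dnmt1 at 0.11 and hbae3 at 0.0020. The block gave -1.50 for cryba1b, -1.72 for crygn2 and -0.062 for piwil1, and limma-voom gave -0.88, -1.32, -0.25 and, for wt1a, -0.17. Without the span trend tbx18 and dnmt1 were at 0.11 each, piwil1 at -0.014, coro1a at 0.073 and nkx2.3 at 0.18. With sibling hearts only hbbe1.1 was at -0.37, mpeg1.1 at -0.70 and nkx2.3 at 0.040. The cause was not tested. Hearts were counted less deeply than embryos, and thinning the embryos to the mean depth of the hearts ended 1 call among the named genes. Genes of under 3 counts in a library are at the limit of detection there.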

Other observations

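Zebrafish keep many gene pairs from a whole-genome duplication in fishes, often marked by symbols that differ only in a closing a or b. Of 1926 such pairs with both genes tested, 311 (16.1%) were higher in hearts for both genes and 145 (7.53%) were lower for both. A further 180 (9.35%) had 1 gene higher and 1 lower, fewer than the pairs higher for both and more than the pairs lower for both. Over all single genes tested, 27.1% were higher and 27.7% lower, and the share of opposed pairs was not tested against these. In 889 pairs only 1 gene was called. The pairing was by symbol alone and was examined after the values were seen.

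Among opposed pairs with at least 10 CPM in the higher tissue for each gene, the glycogen phosphorylase genes pygmb and pygma showed one of the larger differences. The gene pygmb was at 2057, 856, 503 and 876 CPM in hearts and 37.4, 27.4 and 12.9 CPM in embryos. Its partner pygma was at 3.67, 2.13, 2.22 and 1.31 CPM in hearts and 54.8, 18.0 and 26.7 CPM in embryos. No heart overlapped an embryo for either gene, and the log2 fold changes were 5.37 and -3.82. The anion exchanger genes slc4a1a and slc4a1b differed in the same way, at log2 fold changes of 3.59 and -3.73. The transketolase genes tkta and tktb, of the pentose phosphate pathway, stood at 5.25 and -2.58, with sibling heart 1 far above the other hearts for tkta, at 258 CPM.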
